A study of Mus musculus with 24 samples.

Results

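The 10 genes described here code for proteins of smooth muscle, pericytes and myofibroblasts: the contractile filament and filament-associated genes Acta2, Actg2, Myh11, Myl9, Tagln and Cnn1, and the pericyte surface and signalling genes Rgs5, Pdgfrb, Cspg4 and Mcam. They were picked by symbol from a table of 18368 mouse genes. RNA of whole skin was sequenced in 24 libraries from 12 CD-1 mice, an outbred stock, 7 weeks old, of which 4 were wounded on the abdomen, 4 on the back and 4 on the cheek. The labels number the mice 1 to 4 at each site. The count of 12 rests on the methods, by which each mouse was wounded at a single site. Abdomen and back mice carried 2 full-thickness punch wounds of 2 mm each and cheek mice 1, and every mouse gave a wound library at day 3 and a library of its unwounded skin. The groups were thus abdomen, back and cheek, each unwounded (n = 4) and wounded (n = 4), with no transgene or deletion named for any of them; all mice were anaesthetised, given an analgesic and shaved before wounding. The questions set by the design were how skin differs between these sites, how it changes on wounding, and whether that change differs between sites.

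Smooth muscle of skin lies around arterioles and in the muscles that raise hairs, and it contracts when a smooth muscle myosin slides along filaments of smooth muscle actin. Pericytes wrap capillaries and small venules and are kept there by platelet-derived growth factor from the endothelium, which they sense through the receptor that Pdgfrb encodes. Fibroblasts that enter a wound can become myofibroblasts, which lay smooth muscle actin into stress fibres and pull on the new matrix, usually without the smooth muscle myosin heavy chain. The libraries hold RNA of whole tissue, so fewer cells of a type and less RNA per cell cannot be told apart, and a gene shared by these cell types cannot be assigned to any of them.

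Values are FPKM, the fragments of a transcript scaled by its length and by the mapped fragments of the library, so levels can be compared between genes per length. The deposited values hold no read counts, so the depth of the libraries is unknown. FPKM summed to between 490830 and 608888 per library, and between 15781 and 16577 genes were above 0. Keratinocyte markers summed to at least 5841 FPKM in every unwounded group, the labelled tissue being skin. Some libraries stood apart on markers of other structures. Growing hair follicle markers summed to 4345 FPKM in unwounded cheek skin of mouse 4 and to at most 72.67 in the other unwounded libraries. Skeletal muscle markers summed to 561.8 and 3068 FPKM in unwounded abdomen of mice 2 and 3, against 12900 to 25830 in the other unwounded libraries. Calls of a member that changed when cheek mouse 4 was left out are given with and without it.

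All 10 genes were measured in all 24 libraries, the lowest value being 2.73 FPKM for Cspg4. In unwounded skin the order by mean over 12 libraries was led by Acta2, which encodes smooth muscle alpha-actin, at 91.73 ± 17.3 FPKM (SD, n = 12), and Myl9, a regulatory light chain of smooth muscle and non-muscle myosin, at 87.1 ± 18.1. Tagln, the actin-binding transgelin or SM22-alpha, had 56.11 ± 15.5 FPKM and Rgs5, a regulator of G-protein signalling typical of pericytes, 33.56 ± 7.20. Below these came Pdgfrb at 21.46 ± 2.98, Mcam at 19.81 ± 2.18, Actg2 at 19.62 ± 7.83 and Myh11 at 18.07 ± 5.84, neighbours that lay within 1 SD of each other. Cnn1, which encodes the actin- and calmodulin-binding protein calponin, had 9.087 ± 3.33 FPKM and Cspg4, which encodes the NG2 proteoglycan, 4.247 ± 1.22. Acta2 stood at the 95.3 percentile of all genes by mean FPKM and Cspg4 at the 46.0 percentile.

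The genes lie on separate loci of the GRCm38 genome as annotated by GENCODE vM21. The actin gene Acta2 is at chr19:34241090-34255590 and Actg2, the enteric or gamma smooth muscle actin, at chr6:83512905-83536265, both on the minus strand. Myh11, the smooth muscle myosin heavy chain, spans chr16:14194535-14291372 on the minus strand, and Myl9 spans chr2:156775420-156781658 on the plus strand. Chromosome 9 holds 4 of the 10: Tagln at chr9:45929619-45936058 (minus), Cnn1 at chr9:22099216-22109630, Mcam at chr9:44134469-44142727 and Cspg4 at chr9:56865033-56899870 (all plus). Rgs5 is at chr1:169655501-169695813 and Pdgfrb at chr18:61045150-61085061, both plus. FPKM here counts reads over exons. Of the exonic bases of Tagln, 62.4% are also covered by exons of Gm48529 and 5.43% by exons of Pcsk7, both on the opposite strand. How strand was used in the quantification is not given in the sources used here, so reads of Tagln and of these partners may not be separated.

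Members of the actin and myosin families resemble their relatives, which bears on how reads were assigned. Of all stretches of 31 bases in the longest coding transcript, 1.5% of those of Acta2, 1.46% of those of Actg2 and 1.06% of those of Myh11 occur unchanged in a transcript of another gene. No stretch of 100 bases, the read length, of any of the 10 genes does.

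Genes of the smooth muscle contractile set are known for a DNA element called the CArG box, which serum response factor binds. It reads CC, then 6 bases that are each A or T, then GG, and its reverse complement has the same form. RefSeq promoter windows (GRCm38.p6) were at hand for 6 of the 10 genes, Acta2, Myl9, Cnn1, Rgs5, Mcam and Cspg4. In the 250 bases before the RefSeq start, Myl9 held 1 CArG box and 1 site with a single G or C among the 6 inner bases, and Acta2 held 2 sites of the latter kind. The sites are shown because Acta2 rose and Myl9 fell in cheek wounds while both hold a site of the form with 1 substitution. Each is printed 5′ to 3′ with 10 bases on either side, with the element in capitals:
Myl9 CArG box, chr2:156775293-156775322, plus strand: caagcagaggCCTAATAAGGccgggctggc
Myl9 site with 1 substitution, chr2:156775355-156775384, plus strand: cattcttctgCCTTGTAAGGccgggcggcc
Acta2 first site with 1 substitution, chr19:34255438-34255467, minus strand: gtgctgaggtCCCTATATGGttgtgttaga
Acta2 second site with 1 substitution, chr19:34255388-34255417, minus strand: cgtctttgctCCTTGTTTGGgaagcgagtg

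Counted to the first base of the element, the Myl9 sites start 161 and 99 bases before the RefSeq start and the Acta2 sites 84 and 34 bases before it. In GENCODE vM21 the Acta2 sites fall inside its first exon, since that annotation starts the gene further upstream, while the Myl9 sites are outside its exons. Cnn1, Rgs5, Mcam and Cspg4 held neither form in this window. Of 32851 promoter windows of the same length, 1.47% held a CArG box and 8.59% held it or the form with 1 substitution.

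On wounding, the genes did not move as 1 group. Rgs5 and Mcam rose at all 3 sites, Pdgfrb rose in back and cheek, and Acta2 rose in back and cheek, while Actg2, Myh11, Myl9 and Cnn1 fell in abdomen and cheek (adjusted p under 0.05, limma with a term for each mouse). In abdomen 2 of the 10 genes rose and 4 fell, against 16.9% of all 14423 tested genes that rose and 16% that fell. In back 4 rose and 0 fell, against 28% and 17.9% of all genes, with 6 members at an unadjusted p under 0.05; when libraries were scaled by median ratios or by quantiles, 4 rose and 2, Myl9 and Cnn1, fell. In cheek 4 rose and 4 fell, against 19.7% and 16.9% of all genes, and the same scalings gave 3 up and 5 down. Separate fits of the 8 libraries of a site gave 2 up and 3 down in abdomen, 4 up and 3 down in back, and 4 up and 1 down in cheek. In abdomen, back and cheek the members had median log2 fold changes of -0.20, 0.06 and -0.26, beside -0.02, 0.07 and 0.01 for all tested genes. Wound and unwounded libraries did not overlap for 6, 7 and 5 members at these sites. The same held for 24.4%, 40.4% and 31.7% of all 14423 genes. A lack of overlap was thus common among all genes, most of all in back. At the stricter adjusted p of 0.001, 0 members passed in abdomen (7 had an unadjusted p under 0.05), 2 in back (Rgs5 and Mcam) and 2 in cheek (Pdgfrb and Mcam), where 4.96%, 14.4% and 8.69% of all genes passed.

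**Figure D1:**
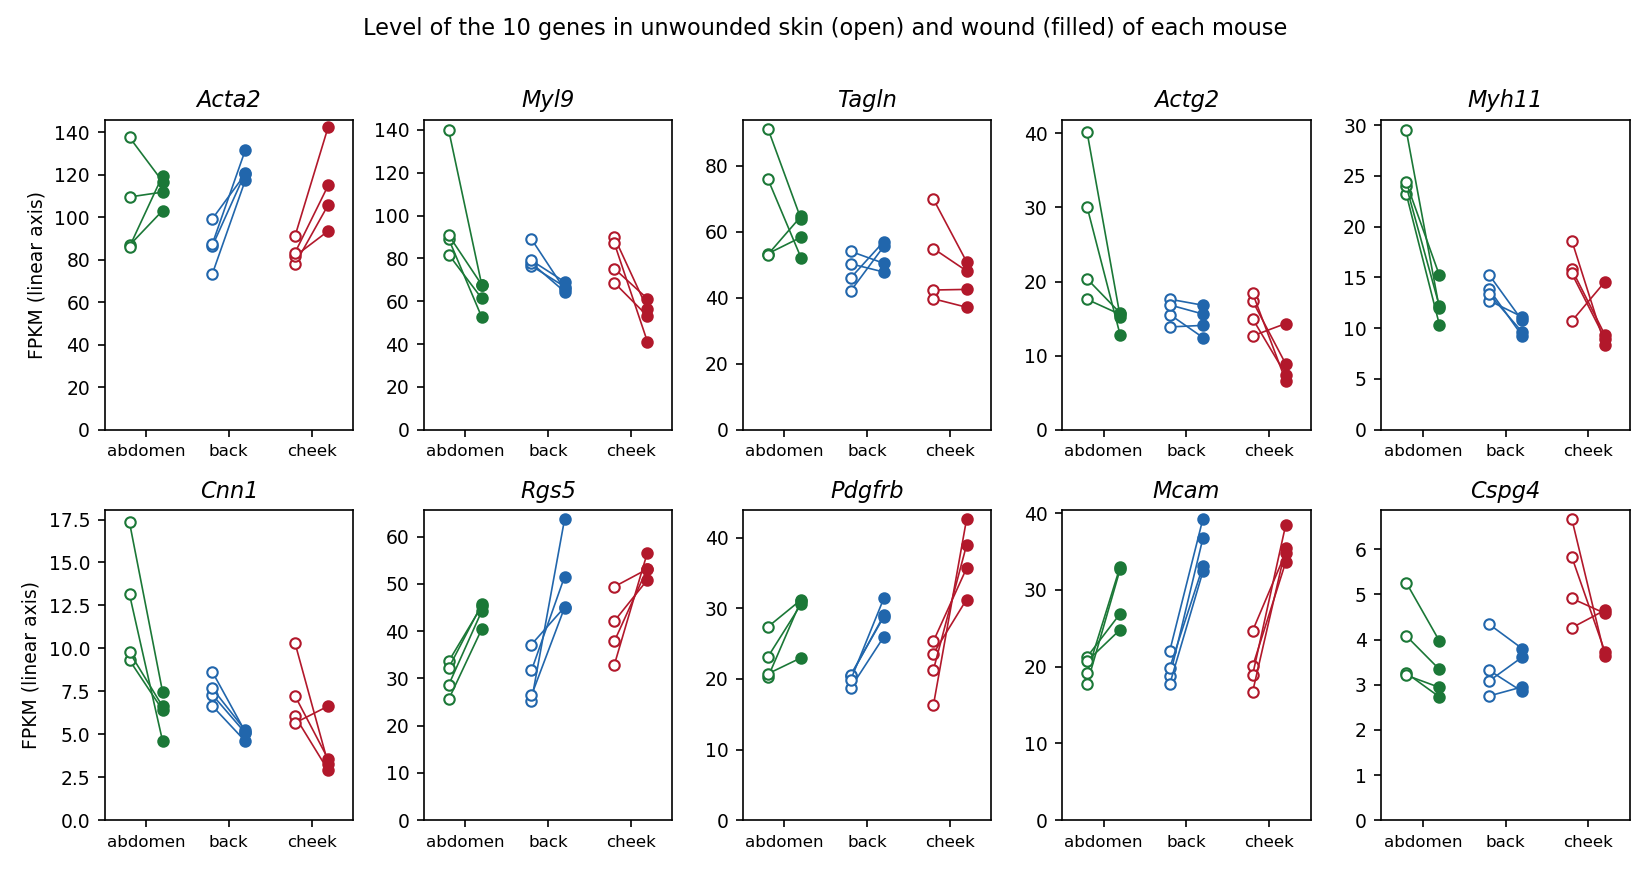
FPKM of the 10 genes (linear vertical axes, each its own scale) in unwounded skin (open circles) and wound (filled circles) at abdomen, back and cheek, with a line joining the libraries of each mouse (n = 4 mice per site). Rgs5, Pdgfrb and Mcam lines rise in 12 of 12 mice and Myl9 lines fall in 12 of 12; the Myh11 line of cheek mouse 4 rises from 10.7 to 14.57 FPKM.

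Acta2, the usual marker of myofibroblasts, had in unwounded abdomen of mice 1 to 4 the values 109.56, 86.81, 137.63 and 86.12 FPKM and in the wounds of these mice 111.85, 103.16, 116.82 and 119.63. These groups overlapped, mouse 3 went down, and the change of 0.13 on the log2 scale did not pass the test (adjusted p = 0.394). In back skin it went from 73.29, 86.4, 99.24 and 87.39 FPKM to 117.6, 120.99, 120.47 and 131.77. In cheek it went from 78.0, 91.21, 81.73 and 83.38 FPKM to 105.84, 142.52, 93.53 and 114.98. At back and cheek every wound was above every unwounded library, with a log2 fold change of 0.51 in back (95% interval 0.27 to 0.75, adjusted p = 0.00267) and 0.43 in cheek (0.19 to 0.67, adjusted p = 0.00879). The cheek call was lost without cheek mouse 2, whose wound was the highest of all (adjusted p = 0.0543). Mean Acta2 of abdomen, back and cheek was 112.9 ± 7.23, 122.7 ± 6.22 and 114.2 ± 20.8 FPKM in the wounds (SD, n = 4 each) and 105.0 ± 24.3, 86.58 ± 10.6 and 83.58 ± 5.56 in unwounded skin.

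Myh11, whose myosin heavy chain is the most specific of these genes to differentiated smooth muscle, fell in abdomen wounds from 23.23, 24.0, 29.49 and 24.36 FPKM in mice 1 to 4 to 10.36, 12.18, 11.95 and 15.22. The groups were far apart, with a log2 fold change of -1.0 (95% interval -1.41 to -0.59, adjusted p = 0.00208), a fitted fold of 0.499. In back it was 12.72, 13.85, 13.4 and 15.27 FPKM in unwounded skin and 11.12, 9.25, 9.62 and 10.76 in the wounds. Every back wound was below every unwounded back library, yet the change of -0.42 missed the threshold (95% interval -0.83 to -0.01, adjusted p = 0.0841). In cheek mice 1 to 3 it went from 15.79, 18.63 and 15.39 FPKM to 9.34, 8.37 and 8.97, and in mouse 4 it went the other way, from 10.7 to 14.57. The cheek change of -0.54 passed with all mice (adjusted p = 0.0405) and was -0.86 without mouse 4 (adjusted p = 0.00032). It was the least stable of the cheek calls: without cheek mouse 1, 2 or 3 the adjusted p was 0.133, 0.214 and 0.141, without abdomen mouse 2 it was 0.0504, and without back mouse 2, 3 or 4 it was 0.0522, 0.0535 and 0.0523. Leaving out cheek mouse 4 also brought the back fall of Myh11 past the threshold (adjusted p = 0.00607), since all sites share the estimate of the spread. On each site's own libraries the cheek fall did not pass (adjusted p = 0.145) and the back fall did (adjusted p = 0.00637).

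Actg2 fell in abdomen and cheek, sites where the other smooth muscle actin did not fall. In unwounded abdomen it ranged widely, at 30.09, 17.59, 40.17 and 20.36 FPKM in mice 1 to 4, and in the wounds it was 12.78, 15.56, 15.26 and 15.74. Its log2 fold change in abdomen was -0.78 (95% interval -1.29 to -0.26, adjusted p = 0.0251), a call that was lost without mouse 1 (adjusted p = 0.108) or mouse 3 (adjusted p = 0.119), the animals with the high unwounded values. In cheek it fell from 14.97, 17.36, 18.42 and 12.66 FPKM to 7.45, 8.87, 6.6 and 14.33. There too mouse 4 alone went up, and the fold change of -0.78 (adjusted p = 0.0219) became -1.10 without it (adjusted p = 0.00176). Without cheek mouse 1, 2 or 3 the call was lost (adjusted p = 0.0773, 0.0839 and 0.114). On each site's own libraries neither the abdomen nor the cheek fall of Actg2 passed (adjusted p = 0.0586 and 0.0582). In back it hardly differed, with 15.96 ± 1.64 FPKM in unwounded skin and 14.73 ± 1.89 in wounds. The interval of the change ran from -0.63 to 0.40 (adjusted p = 0.714).

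Myl9 was lower in the wound of 12 of 12 mice. It fell in abdomen from 89.08, 81.8, 139.9 and 90.85 FPKM to 52.52, 61.3, 67.54 and 67.63, a log2 fold change of -0.66 (95% interval -0.94 to -0.38, adjusted p = 0.00238). In cheek it fell from 68.67, 89.97, 87.24 and 75.28 FPKM to 53.13, 56.49, 41.17 and 61.22, a change of -0.60 (-0.88 to -0.32, adjusted p = 0.00314). In both sites the groups did not overlap. In back 76.49, 77.83, 89.02 and 79.04 FPKM compared with 66.84, 64.47, 65.53 and 69.08, again without overlap, but the smaller change of -0.27 did not pass (adjusted p = 0.0972), except on the back libraries alone (adjusted p = 0.0285) and after the scalings named above.

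Cnn1 followed the same order of sites. Its abdomen values of 13.14, 9.31, 17.33 and 9.77 FPKM in mice 1 to 4 fell to 4.6, 6.41, 7.46 and 6.62 in the wounds (log2 fold change -0.90, 95% interval -1.38 to -0.42, adjusted p = 0.00882). In cheek 6.04, 7.23, 10.3 and 5.66 FPKM fell to 2.9, 3.55, 3.28 and 6.64 (-0.79, adjusted p = 0.0145), mouse 4 being once more the exception. The cheek change was -1.13 without mouse 4 (adjusted p = 0.000543) and lost its call without mouse 1, 2 or 3 (adjusted p = 0.0549, 0.0612 and 0.0863) or on the cheek libraries alone (adjusted p = 0.0695). In back all wounds, at 4.59 to 5.22 FPKM, were below all unwounded libraries, at 6.65 to 8.64, with a change of -0.55 that missed the threshold (adjusted p = 0.0597) and passed it without cheek mouse 3 or 4 (adjusted p = 0.0369 and 0.0103) or on the back libraries alone (adjusted p = 0.00193).

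Tagln, often read as a companion of Acta2, did not change detectably at any site. It was lower in the wound of 7 mice and higher in 5, and its log2 fold changes were -0.16 in abdomen (95% interval -0.46 to 0.14), 0.13 in back (-0.17 to 0.44) and -0.18 in cheek (-0.49 to 0.12), with adjusted p of 0.401, 0.461 and 0.33. The intervals leave room for changes of up to 0.44 upward and 0.49 downward, and reads from the opposite strand may be part of the Tagln values, as given above.

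Among the pericyte genes Mcam, which encodes the adhesion molecule CD146 of pericytes, smooth muscle and endothelium, had the most uniform response. In abdomen it rose from 17.76, 19.15, 21.26 and 20.71 FPKM in mice 1 to 4 to 32.71, 33.05, 26.91 and 24.83. In back it rose from 18.72, 22.1, 19.89 and 17.77 FPKM to 36.75, 39.28, 33.07 and 32.41, and in cheek from 20.03, 24.68, 18.92 and 16.72 to 33.64, 34.87, 38.49 and 35.43. At each site the wounds lay above all unwounded libraries. The log2 fold change was 0.56 in abdomen (95% interval 0.31 to 0.80, adjusted p = 0.00318), 0.83 in back (0.59 to 1.08, adjusted p = 0.000103) and 0.82 in cheek (0.58 to 1.07, adjusted p = 0.000167).

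Rgs5 was higher in the wound of 12 of 12 mice, and at each site no wound overlapped the unwounded libraries. It rose from 25.57, 28.63, 33.63 and 32.22 FPKM to 40.47, 44.27, 45.32 and 45.69 in abdomen (log2 fold change 0.55, 95% interval 0.25 to 0.85, adjusted p = 0.00987). In back it rose from 25.24, 31.7, 26.4 and 37.18 FPKM to 63.72, 51.55, 45.01 and 45.09 (0.76, 0.46 to 1.06, adjusted p = 0.000809). Unwounded cheek lay higher, at 42.12, 49.41, 32.83 and 37.83 FPKM, and the wounds were nearly equal at 50.86, 53.15, 56.64 and 53.26 (0.41, 0.11 to 0.71, adjusted p = 0.0347). The cheek call of Rgs5 was lost without cheek mouse 1, 3 or 4 (adjusted p = 0.0555, 0.178 and 0.0888), and also after scaling by median ratios or quantiles.

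Pdgfrb was likewise higher in 12 of 12 wounds. In cheek it rose from 23.59, 25.35, 21.3 and 16.3 FPKM to 31.24, 35.66, 38.94 and 42.59 (log2 fold change 0.77, 95% interval 0.49 to 1.06, adjusted p = 0.00071), and in back from 20.41, 20.55, 18.74 and 19.84 to 28.99, 28.79, 25.95 and 31.39 (0.52, 0.24 to 0.80, adjusted p = 0.00624). The groups did not overlap at either site. Among cheek mice, mouse 4 had the largest rise. Leaving out each mouse in turn gave cheek changes of 0.58 to 0.90, and the call held each time (adjusted p of at most 0.00483). In abdomen 20.22, 27.36, 20.72 and 23.11 FPKM compared with 31.07, 31.19, 22.98 and 30.55, where the wound of mouse 3 stayed low and the change of 0.33 did not pass (adjusted p = 0.0663). It passed in abdomen when cheek mouse 4 was left out (adjusted p = 0.0164). Pdgfrb is also expressed by fibroblasts, so it is the least pericyte-specific of the 4.

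Cspg4, the least abundant of the genes, was the only pericyte gene with no call at any site. It was lower in the wound of 9 of 12 mice, with log2 fold changes of -0.24 in abdomen (95% interval -0.53 to 0.06), -0.02 in back (-0.31 to 0.27) and -0.34 in cheek (-0.63 to -0.05), and adjusted p of 0.196, 0.924 and 0.0666. In cheek it was 4.26, 4.91, 5.83 and 6.67 FPKM in unwounded skin and 4.65, 4.58, 3.73 and 3.63 in the wounds, values that overlap. The cheek change passed after scaling by median ratios or quantiles, and without cheek mouse 1 (adjusted p = 0.0209). Without cheek mouse 4, which had the largest fall, it shrank to -0.19 (adjusted p = 0.309).

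**Figure D2:**
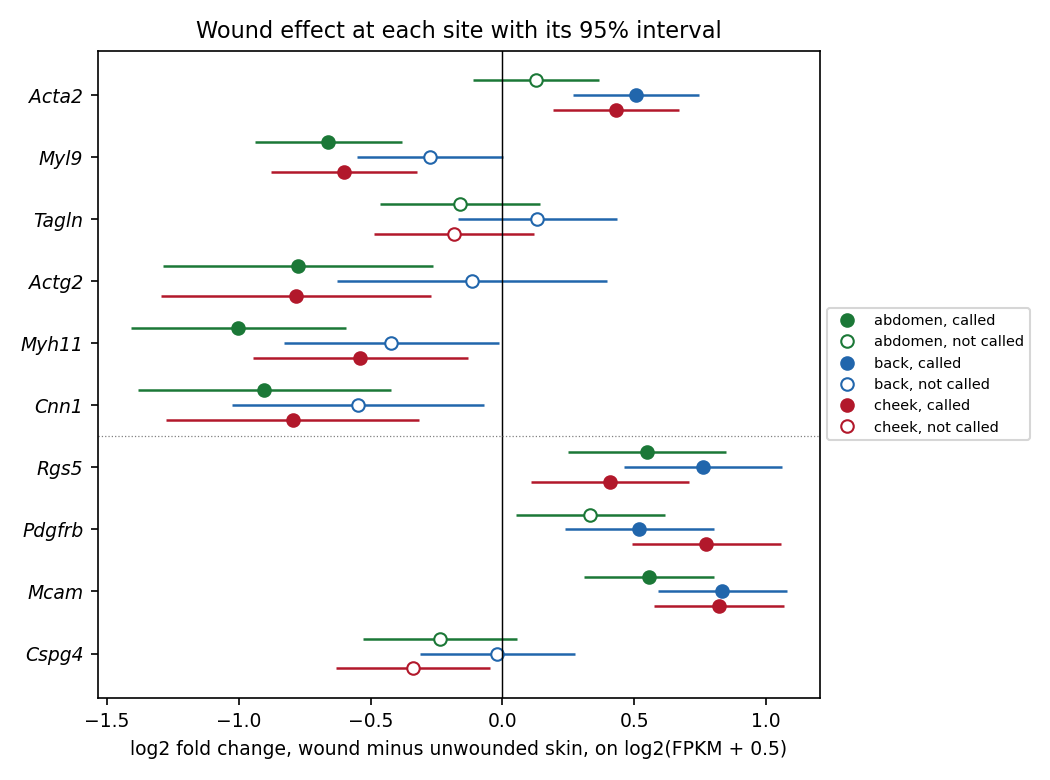
Log2 fold change of wound against unwounded skin (horizontal axis, on log2(FPKM + 0.5)) for each gene at abdomen (green), back (blue) and cheek (red); points are limma estimates, bars 95% intervals, and filled points have an adjusted p under 0.05. Contractile genes above the dotted line lie mostly left of 0 except Acta2, and Rgs5, Pdgfrb and Mcam lie right of 0.

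Whether these changes differed between sites was tested directly. Over all 3 sites 0 of the 10 genes passed (limma F test, adjusted p under 0.05), 0 had an unadjusted p under 0.05, and 3 of 14423 genes passed in all, or 0.0208%. Between pairs of sites, 3 contrasts of a member had an unadjusted p under 0.05, and none passed after adjustment: that of Acta2 between back and abdomen (0.38 on the log2 scale, 95% interval 0.04 to 0.72, adjusted p = 0.278), that of Myh11 between back and abdomen (0.58, 0.00 to 1.16, adjusted p = 0.327) and that of Pdgfrb between cheek and abdomen (0.44, 0.04 to 0.84, adjusted p = 0.387). A call at one site and none at another is therefore not shown to be a difference between sites for any of the 10 genes, and the intervals do not show that the sites respond alike.

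In unwounded skin, Myh11 was higher in abdomen than at the other sites. Its mean was 25.27 ± 2.85 FPKM there, against 13.81 ± 1.08 on the back and 15.13 ± 3.29 on the cheek (SD, n = 4 each), and all abdomen libraries, at 23.23 to 29.49, were above all others, at 10.7 to 18.63. Back was lower than abdomen by a log2 difference of -0.85 (95% interval -1.16 to -0.53, adjusted p = 0.00997) and cheek by -0.74 (-1.06 to -0.43, adjusted p = 0.0219). The cheek call was lost without abdomen mouse 2 (adjusted p = 0.06) or mouse 3 (adjusted p = 0.0828). Back and cheek did not differ detectably (0.10, -0.21 to 0.42, adjusted p = 0.699). The median over all genes was -0.12 where back was set against abdomen and 0.14 where cheek was set against back, which scaling by median ratios brought to within 0.01 of 0 without changing these calls. Skeletal muscle markers summed to 17320, 561.8, 3068 and 16180 FPKM in unwounded abdomen of mice 1 to 4, and to 12900 to 25830 in unwounded back and cheek; their part in the Myh11 difference was not tested.

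Myh11 was the only member called between unwounded sites, 1 of 10 genes in either contrast with abdomen, that of back and that of cheek, beside 2.67% and 2.57% of all 13956 tested genes. Between cheek and back 0 members and 1.05% of genes were called, with 2 members, Rgs5 and Cspg4, at an unadjusted p under 0.05. Cnn1 and Actg2 were also highest in abdomen, at means of 12.39 ± 3.71 and 27.05 ± 10.3 FPKM against 7.308 to 7.565 and 15.85 to 15.96 elsewhere, with the highest values in abdomen mice 1 and 3, and neither passed (adjusted p of 0.0828 to 0.111). Among pericyte genes, Cspg4 had 5.418 ± 1.05 FPKM in cheek against 3.953 ± 0.959 in abdomen and 3.373 ± 0.686 on the back, and Rgs5 had 40.55 ± 7.02 against 30.01 ± 3.63 and 30.13 ± 5.48. These overlapped between sites and did not pass (adjusted p of 0.115 to 0.234 for cheek against the others). Mcam was nearly level at 19.62 to 20.09 FPKM. A fit of all 24 libraries as 6 groups called Actg2 in both contrasts with abdomen (adjusted p = 0.0484 and 0.0477), Cnn1 and Rgs5 for cheek against abdomen (0.0405 and 0.0492) and Cspg4 for cheek against back (0.0287).

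Between wounds, the means of Actg2, Tagln, Myl9 and Cnn1 were lowest in cheek and those of Rgs5, Mcam and Cspg4 lowest in abdomen. With all mice only Actg2 and Tagln passed, for cheek against abdomen. Actg2 was lower in cheek than in abdomen wounds, 9.312 ± 3.47 against 14.84 ± 1.38 FPKM (log2 difference -0.70, 95% interval -1.11 to -0.29, adjusted p = 0.0388). Tagln was also lower in cheek, 44.71 ± 6.14 against 59.8 ± 5.8 FPKM (-0.42, -0.65 to -0.19, adjusted p = 0.0315), and the 4 cheek wounds, at 37.15 to 50.97, were all below the abdomen wounds, at 52.19 to 64.71. These 2 of 10 compare with 10.8% of all 14023 tested genes. Both calls were fragile. That of Actg2 was lost without abdomen mouse 2, 3 or 4, back mouse 2 or cheek mouse 1, 2 or 3, up to an adjusted p of 0.0971. That of Tagln was lost without abdomen mouse 3 or 4 or cheek mouse 1, 2 or 3, up to 0.0834. A fit of all 24 libraries as 6 groups also ended both calls (adjusted p = 0.0566 for Actg2 and 0.127 for Tagln). Leaving out a mouse also added calls for cheek against abdomen. Cnn1 passed without cheek mouse 4 (-0.84, adjusted p = 0.0156) or abdomen mouse 1 (adjusted p = 0.0423), and Rgs5 without back mouse 1 (adjusted p = 0.035).

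Rgs5, Pdgfrb and Mcam were higher in all 4 cheek wounds than in all 4 abdomen wounds, by log2 differences of 0.28, 0.35 and 0.28 (adjusted p of 0.0843, 0.0653 and 0.0824), which did not pass. Together with Tagln this made 4 of 10 genes without overlap between cheek and abdomen wounds, where 18.8% of all genes had none. Back against abdomen wounds gave 0 calls among the members and 1.27% among all genes, with Mcam at an unadjusted p under 0.05 (0.27, adjusted p = 0.202). Cheek against back wounds gave 0 calls and 2.5% of all genes, with 5 members, Actg2, Myl9, Tagln, Pdgfrb and Cspg4, at an unadjusted p under 0.05. In that contrast Actg2 passed without cheek mouse 4 (-0.91, adjusted p = 0.00888) and Pdgfrb without abdomen mouse 3 (adjusted p = 0.0442).

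The proportions of these transcripts within a library also shifted on wounding. Acta2 over Myh11, per length, was 5.38 ± 1.31 in unwounded skin (range 3.54 to 7.79, n = 12) and 11 ± 2.57 in wounds (7.86 to 17.0, n = 12), with no overlap over the 3 sites. By site the means went from 4.13 to 9.23 in abdomen, 6.28 to 12.1 in back and 5.73 to 11.7 in cheek. Cheek mouse 4 was again apart, with 7.79 in unwounded skin and 7.89 in its wound. The ratio of the smooth muscle actins, Acta2 over Actg2, went from 4.96 ± 0.947 (3.43 to 6.59) to 9.73 ± 3.19 (6.63 to 16.1), also without overlap. Rgs5 over Myh11 went from 2.04 ± 0.749 to 4.69 ± 1.15, and Mcam over Cspg4 from 4.98 ± 1.27 to 9.61 ± 1.76. Tagln over Cnn1 went from 6.54 ± 2.07 to 10.7 ± 2.05. In these last 3 ratios the wound and unwounded libraries overlapped over the 3 sites. In cheek mouse 4, Tagln over Cnn1 went the other way, from 12.4 in unwounded skin to 7.68 in the wound. Rgs5 over Myh11 was nearly level in that mouse, at 3.54 and 3.66. A ratio within a library shows unequal change of its parts, and scaling between libraries does not enter it.

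**Figure D3:**
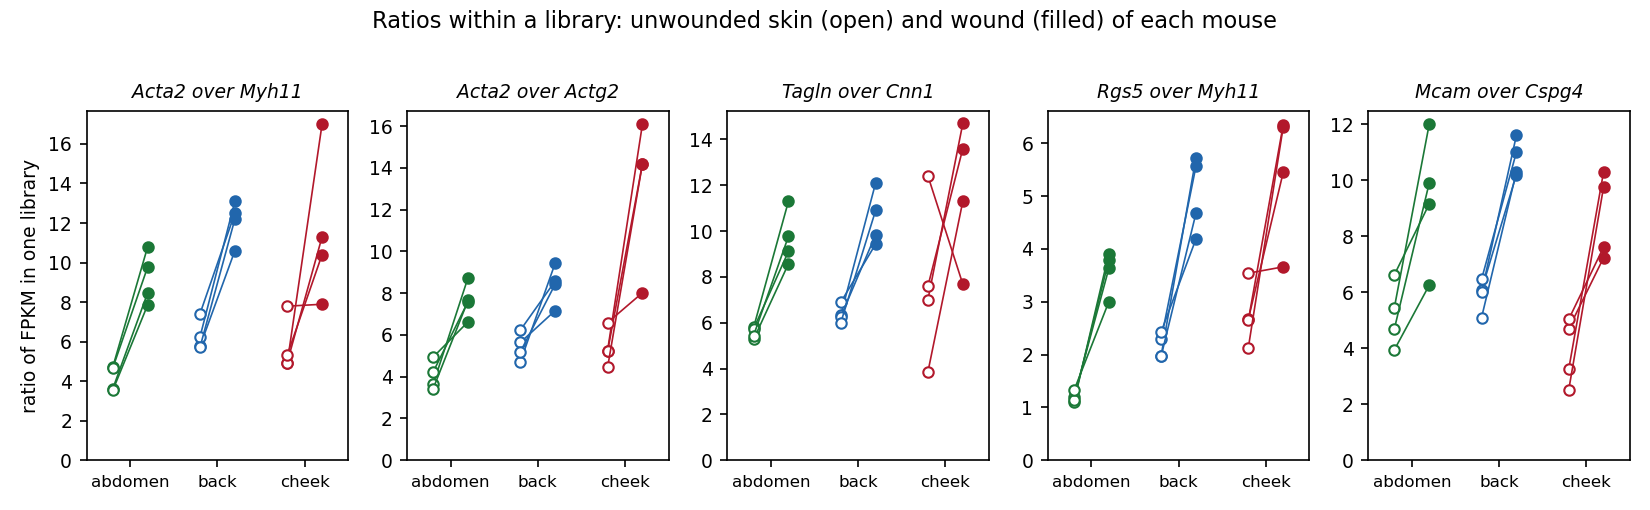
Ratio of FPKM of the named genes within each library (linear axes from 0), in unwounded skin (open) and wound (filled) at abdomen, back and cheek, lines joining the libraries of a mouse (n = 4 per site). Acta2 over Myh11 and Acta2 over Actg2 are at least 7.86 and 6.63 in wounds and at most 7.79 and 6.59 in unwounded skin.

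The order of levels changed accordingly. In wounds Acta2 led at 116.6 ± 12.8 FPKM (n = 12), well above Myl9 at 60.58 ± 8.33, Tagln at 52.42 ± 8.12 and Rgs5 at 49.59 ± 6.52, of which each of the last 3 lay within 1 SD of the next. Mcam at 33.45 ± 4.21 and Pdgfrb at 31.61 ± 5.34 stood above Actg2 at 12.96 ± 3.47 and Myh11 at 10.98 ± 2.18, from which they had differed in unwounded skin by less than 1 SD of those genes. Cnn1 had 5.122 ± 1.45 and Cspg4 3.565 ± 0.639 FPKM.

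Within groups, the contractile genes varied together, while pairs of a contractile and a pericyte gene had r of both signs. For each gene the deviation of log2(FPKM + 0.5) from its group mean was taken in the 24 libraries, and Pearson correlations between genes are given as a description, since the libraries of a mouse and the scaling of a library are shared by the points. Over the 15 pairs of contractile genes the median r was 0.62, from 0.14 for Myh11 and Tagln to 0.89 for Actg2 and Cnn1. Over the 24 pairs of a contractile and a pericyte gene it was -0.04, from -0.46 for Actg2 and Cspg4 to 0.50 for Myh11 and Pdgfrb. Some of these pairs differed in sign between states. Mcam and Myh11 had r of 0.72 over unwounded and -0.38 over wound libraries, and Mcam and Myl9 0.41 and -0.61. Others did not, such as Actg2 and Cspg4 at -0.61 and -0.23. Over the 6 pairs of pericyte genes the median was 0.12, the highest being 0.49 for Pdgfrb and Mcam. Acta2 went with Myl9 (0.76) and Tagln (0.73), and with Myh11 only at 0.22. Myh11 was the contractile gene with the highest values against Pdgfrb (0.50) and Rgs5 (0.42).

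**Figure D4:**
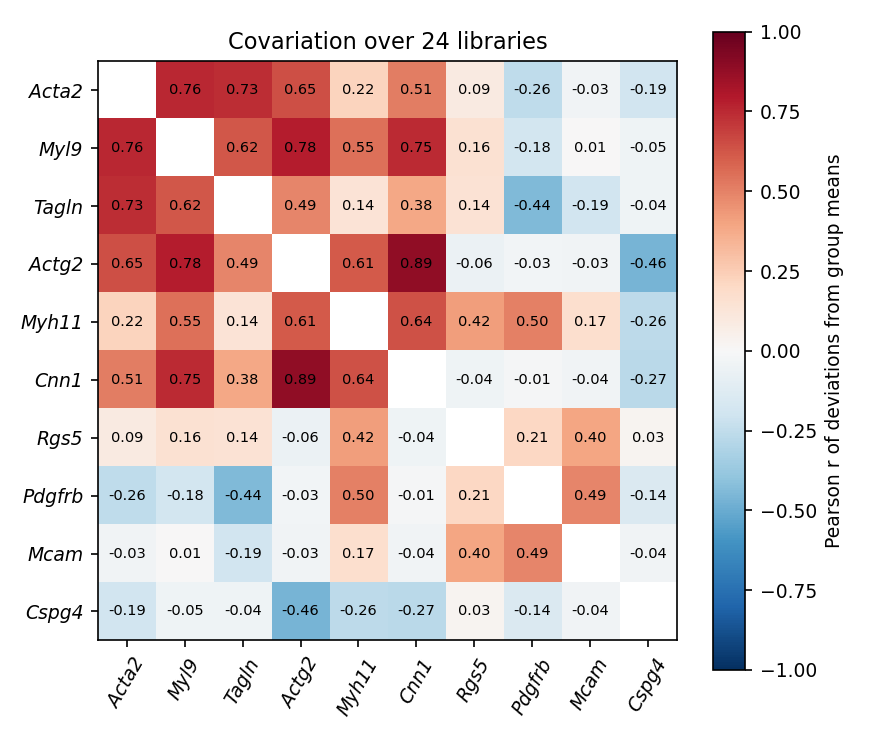
Pearson r between the deviations of the genes from their group means (colour and number, n = 24 libraries in 6 groups), contractile genes first. The contractile block runs from 0.14 to 0.89. Pairs of a contractile and a pericyte gene run from -0.46 to 0.50, with a median of -0.04.

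Among 13126 genes with a mean of at least 1 FPKM, the 5 whose deviations were most like those of Myh11 were Mylk (r = 0.859, 24 libraries), Nkain4 (0.826), Aebp1 (0.82), Tgfbi (0.788) and Adamts2 (0.775). Mylk encodes the myosin light chain kinase of smooth muscle. Those most like Rgs5 were Spry2 (0.799), Gucy1b1 (0.76), Rgs4 (0.747), Dnajc21 (0.73) and Ghitm (0.718), of which Rgs4 is another regulator of G-protein signalling and Gucy1b1 a subunit of the soluble guanylate cyclase that senses nitric oxide.

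Among other genes of the smooth muscle programme more fell than rose at each site. Of 21 tested genes 9, 10 and 8 fell in abdomen, back and cheek wounds, beside 16%, 17.9% and 16.9% of all genes. Rises numbered 1, 2 and 1, beside 16.9%, 28% and 19.7% of all genes. The median log2 fold changes of the list were -0.56, -0.47 and -0.38. Lmod1, an actin nucleator of smooth muscle, fell at all 3 sites, with log2 fold changes of -1.23, -2.08 and -1.46 (adjusted p = 0.019, 0.00063 and 0.00695). Mylk fell likewise (-0.65, -0.54 and -0.56, adjusted p = 0.00814, 0.0148 and 0.0148), and the filament-associated gene Synpo2 also fell at all 3 sites. The tropomyosins Tpm1 and Tpm2 fell in back and cheek, Tpm2 with changes of -1.89 and -1.31 (adjusted p = 0.00313 and 0.0262), and the small heat-shock protein gene Hspb1 fell in abdomen and cheek, with -0.39 and -0.60 (adjusted p = 0.026 and 0.00198). Skeletal muscle expresses several of these genes as well, tropomyosins among them, and its own markers changed with wounding: their sum was 15400 to 23810 FPKM in unwounded back and 3546 to 5003 in back wounds, 12900 to 25830 and 5177 to 7452 in cheek, and 561.8 to 17320 and 1897 to 5894 in abdomen. Of the 10 skeletal markers 0, 7 and 1 fell in abdomen, back and cheek, and 0 rose. Their part in the changes of the smooth muscle programme was not tested.

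Mural cell genes beyond the members went both ways. Of 15 tested, 3, 6 and 2 rose in abdomen, back and cheek wounds, beside 16.9%, 28% and 19.7% of all genes, and 4 fell at each site, beside 16%, 17.9% and 16.9%. Gja4, the connexin-37 gene of arterial vessels, rose at all sites, by 0.80, 0.91 and 0.60 (adjusted p = 0.00066, 0.000122 and 0.00305), and Higd1b, a pericyte marker, rose by 1.46 in back (adjusted p = 7.69e-05) and 0.59 in cheek (adjusted p = 0.0295). Abcc9 and Kcnj8, which together form the ATP-sensitive potassium channel of mural cells, fell at all 3 sites, Abcc9 with changes of -0.52, -1.23 and -0.62 (adjusted p = 0.0154, 3.62e-05 and 0.00568) and Kcnj8 with -0.58, -0.60 and -0.75 (adjusted p = 0.0121, 0.0065 and 0.00234). The matrix gene Aspn, which fibroblasts also express, fell at all 3 as well (-1.18, -1.10 and -0.86), while Ndufa4l2, the most abundant of the list at 229.7 FPKM, did not pass at any site.

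Blood endothelium, the partner of pericytes, was measured beside them. Of 7 endothelial markers 5 rose at each site (Cdh5, Emcn, Kdr, Pecam1 and Tie1) and 0 fell. Rises among all genes were 16.9%, 28% and 19.7% in abdomen, back and cheek. The sum of the markers went from 94.85 to 106.2 FPKM in unwounded abdomen to 125.0 to 138.2 in its wounds. In back it went from 89.83 to 120.2 to 140.3 to 154.1, and in cheek from 84.21 to 131.6 to 136.2 to 155.9. The summed pericyte members went from 66.81 to 81.3 to 98.15 to 111.9 FPKM in abdomen, from 67.45 to 78.69 to 106.9 to 133.1 in back and from 77.52 to 104.3 to 120.4 to 137.8 in cheek. The part of endothelial content in these changes was not tested.

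Of the ligands and the other receptor of the platelet-derived growth factor family, Pdgfra rose by 0.58 in back and 0.59 in cheek (adjusted p = 0.00999 and 0.0118) and was level in abdomen (-0.01). Pdgfrb passed in back and cheek as well. A difference between sites in the wound change did not pass for Pdgfra or for Pdgfrb. Pdgfb, the ligand that draws pericytes to endothelium, rose in abdomen and cheek, and Pdgfd, another ligand of the Pdgfrb receptor, fell in abdomen and back, with -1.08 and -0.63 (adjusted p = 0.00308 and 0.032). Pdgfa, the most abundant ligand at 16.32 FPKM, did not pass anywhere. In all 1, 1 and 2 of these 5 genes rose and 2, 1 and 0 fell in abdomen, back and cheek. The shares among all genes were 16.9%, 28% and 19.7% for rises and 16%, 17.9% and 16.9% for falls.

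Genes of activated fibroblasts and myofibroblasts had larger median changes than Acta2. Of 22 tested, 13, 13 and 14 rose and 1, 1 and 0 fell in abdomen, back and cheek, with medians of 0.85, 0.65 and 1.05. Among all genes 16.9%, 28% and 19.7% rose and 16%, 17.9% and 16.9% fell. Tnc, the matrix protein tenascin-C, rose by 3.91, 4.63 and 4.50 on the log2 scale. Postn, which encodes periostin, passed in cheek (0.79, adjusted p = 0.00263) and not elsewhere, a difference between sites that itself did not pass (adjusted p = 0.337), and Fn1, which encodes fibronectin, did not pass at any site. The general cytoskeleton rose too: 9, 13 and 9 of 15 genes rose and 0 fell, among them Actb by 0.54, 0.88 and 0.66, Actg1 by 0.42, 0.78 and 0.50, and the non-muscle myosin Myh9 by 0.62, 1.12 and 0.84. At each site the Acta2 change, 0.13, 0.51 and 0.43, was below those of these actins, an order that was not tested.

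Among markers of other cell types, neutrophil markers rose at all sites (5 of 5 each), from at most 37.55 FPKM in sum in unwounded skin to at least 344.0 in wounds, and macrophage markers rose in 4, 5 and 5 of 5. Fibroblast markers fell in 6, 4 and 3 of 7, adipocyte markers in 5, 5 and 4 of 5, Schwann cell markers in 2, 3 and 0 of 5 and melanocyte markers in 0, 0 and 3 of 4. Of 5 keratinocyte markers 2, 3 and 3 rose and 1 fell at each site. For all genes the shares were 16.9%, 28% and 19.7% up and 16%, 17.9% and 16.9% down in abdomen, back and cheek. Growing hair follicle markers fell in cheek, 3 of 7, where the unwounded skin of mouse 4 alone held 4345 FPKM. No marker of any list was at 0 in all libraries of a group. How far these shifts in the makeup of the tissue enter the values of the 10 genes was not tested.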

How the data were processed

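Skin of CD-1 mice was sequenced by the authors on BGISEQ-500 as paired reads of 100 bases. The deposited FPKM values, rounded to 2 decimals, came from RSEM 1.2.12 on Bowtie2 2.2.5 alignments, with HISAT2 for the genome (mm10). These steps are per the labels' processing notes and the methods, and replicates were kept as separate libraries. Whether wound libraries of abdomen and back joined the 2 wounds of a mouse is not given in the sources used here. A second deposited table of the authors' own DESeq2 log2 fold changes and adjusted p-values, 18 columns for 9 comparisons, was not used. RSEM estimates need not be whole reads, so no counts were recovered, and the number of libraries sets the precision.

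Values were tested as log2(FPKM + 0.5) with limma 3.58.1 (R 4.3.3, statmod 1.5.0), with variance trend and robust estimation, keeping genes that reached 0.5 FPKM in 4 or more of the fitted libraries; fold changes on this scale understate those of low genes. Wound effects were fitted over 24 libraries with a term for each of 12 mice and a wound effect per site. Libraries of a mouse deviated together on average (mean r of 0.322, 0.348 and 0.281 in abdomen, back and cheek, the lowest being -0.03 in abdomen). Between mice it was -0.108, -0.116 and -0.096. Centring on the group mean by itself pulls values between mice below 0, so they are no independent background. Sites were compared within the 12 unwounded or 12 wound libraries. P-values were two-sided, adjusted by Benjamini-Hochberg over all genes of a comparison, and called under 0.05; 0.001 is the study's threshold for wound effects. The code was also run on simulated data, with changes added in back wounds only and in far fewer genes than were called here. That run does not bear on the calls.

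The 10 genes and all lists were chosen with earlier results of these data known. From each list, the 2 genes with the highest mean FPKM and the 2 with the largest mean change among those called were named, except items not reported here; others named beside them were chosen after their values were seen, and ratios likewise. Pseudocount, filter, scaling, mouse term, sample set and left-out mice were varied. Genes were located with GENCODE vM21. The table had 0 unused sample columns, and 3 duplicated symbols, none a member.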

Additional observations from a re-analysis of the deposited data

Results flagged for a closer look

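In 60 groups of 4 libraries (10 genes in 6 groups), the highest or lowest library was set against the spread of the group, and 4 groups held a library far from the other 3; chance alone flags about 1 in 20 groups. Myh11 in the cheek wound of mouse 4 was 14.57 FPKM, where the other cheek wounds had 8.37 to 9.34. Myl9 in the unwounded abdomen of mouse 3 was 139.9 FPKM, where the others had 81.8 to 90.85. Actg2 in the abdomen wound of mouse 1 was 12.78 FPKM, below the other wounds at 15.26 to 15.74. Pdgfrb in the abdomen wound of mouse 3 was 22.98 FPKM, below 30.55 to 31.19 in the others. No gene moved in opposite directions in all mice of a pair of sites.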

How the results depend on the processing

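No call of a member changed its direction under any alternative tried. Under the stricter adjusted p of 0.001 the called members were 0 in abdomen, 2 in back and 2 in cheek. Fitted on each site's own 8 libraries, 5 (2 up, 3 down), 7 (4 up, 3 down) and 5 (4 up, 1 down) members were called in abdomen, back and cheek. Scaling by median ratios or quantiles, and leaving out the term for the mouse, gave 6 calls in back, while pseudocounts of 0.1 or 1 FPKM, a filter of 1 FPKM or none left all counts within 1.5 times. Leaving out each mouse in turn gave 5 to 7 calls in abdomen, 4 to 6 in back and 4 to 8 in cheek. Between unwounded sites, a fit of all 24 libraries as 6 groups called 2 members (back against abdomen), 4 (cheek against abdomen) and 1 (cheek against back), and leaving out a mouse gave 1, 0 to 2 and 0. Between wounds that fit called 0 for cheek against abdomen, and leaving out a mouse gave 0, 0 to 3 and 0 to 1 in the same order of contrasts. Mouse numbers were not taken to pair mice of different sites. Same-numbered libraries of different sites had a mean r of -0.027 unwounded and -0.051 in wounds, which cannot by itself show that they came from different mice. A replicate block by number called 2 members, Myh11 and Cnn1, for unwounded cheek against abdomen and changed no other count. Over single genes, 2036 values kept their side of the threshold, 56 lost it and 28 gained it; the causes were not tested. Depth is unknown, and 4 mice per site limit the precision.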
